A study of Mus musculus with 18 samples.

Results

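The basal transcription factor TFIID was followed through its subunit gene *Taf6* and 9 partner genes of the same complex, *Tbp*, *Taf1*, *Taf2*, *Taf3*, *Taf5*, *Taf7*, *Taf8*, *Taf9* and *Taf10*, which are 10 of the 16545 genes in an expression table of mouse splenic B cells. *Taf6* was picked because its level was lower in B cells lacking *Zbtb24*, so its difference between genotypes is given as a description, with no test. The partners were picked as subunits of its complex. Knockout mice carried Zbtb24 loxp/loxp with a Cre recombinase active in B-lineage cells (B-CKO), which removes exon 2 of the DNA-binding protein gene *Zbtb24* there, and control littermates carried Zbtb24 +/+ with the same Cre, so that both genotypes hold the recombinase. Total splenic B cells, on the C57BL/6 background, were taken at 0 h (D0) or after 24 h (D1) or 48 h (D2) of culture with LPS, a component of bacterial walls to which B cells respond by activation, with 3 libraries per genotype and time (18 in all). Each library of a group is read here as 1 mouse, and the ages of these mice are not given in the sources used here. All levels are FPKM, fragment numbers scaled by the authors to transcript length and to each library's mapped fragments.

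TFIID is the factor that recognises the core promoters of genes read by RNA polymerase II and starts the assembly of the preinitiation complex there. It is built from the TATA-binding protein TBP and a set of TBP-associated factors (TAFs), most of which pair through histone folds. TAF6 pairs with TAF9, and both sit in a core shared with TAF5, TAF4 and TAF12. TAF8 pairs with TAF10 and brings in TAF2, TAF3 also pairs with TAF10, and TAF1 is the large subunit to which TAF7 binds.

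The depth of sequencing in fragments is unknown, since the table holds no counts. Steps between low values of 148 genes put the relative depth at 0.892 to 0.913 for 0 h, against 1.02 to 1.06 for the cultures, with medians of 0.905 in control and 0.902 in B-CKO libraries at 0 h. The median SD between replicates on the log2 scale was 0.127 in control and 0.122 in B-CKO cells at 0 h, and between 0.0489 and 0.0718 in the groups at 24 h and 48 h. All 8 B cell markers were present in every group, and the summed level of 7 T cell markers was 5.62 to 11.88 FPKM at 0 h and 0.89 to 2.28 FPKM later. *Zbtb24* itself was at 45.4 ± 7.24 FPKM (SD, n = 3) in control cells and at 12.5 ± 1.90 FPKM (SD, n = 3) for B-CKO cells at 0 h. In culture it was at 17.6 ± 1.66 FPKM against 10.9 ± 0.677 FPKM at 24 h and 15.2 ± 1.86 against 10.4 ± 1.075 FPKM at 48 h (control against B-CKO, SD, n = 3), so that B-CKO cells held 27.5%, 62.0% and 68.6% of the control mean in time order. All B-CKO libraries lay below all control libraries at each time. The deletion removes exon 2 alone, so these levels of the whole gene can include fragments of its other exons. They do not measure how much intact *Zbtb24* was left.

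*Taf6* (gene ID 21343) lies on the minus strand of chromosome 5 of GRCm38 (mm10), chr5:138178617-138187451. The letters CAGGACCT, the core of the sequence known to be bound by ZBTB24, were searched on both strands (reverse complement AGGTCCTG) in RefSeq promoter windows of 300 bases, 250 before and 50 after each start site. The *Taf6* window with its start site at position 138187226 held 2 copies, whereas its other window, with the start site at 138187451, held 0. The edge of that other window, at 138187402, cuts through the upstream copy (138187399 to 138187406), so its 0 depends on the window's limit. Of 32851 windows of all genes, 653 (1.99%) held at least 1 copy and 13 (0.0396%) held 2 or more. The 2 stretches of the *Taf6* window are shown because they hold these copies, in capitals, read 5′ to 3′ on the minus strand.
*Taf6* chr5:138187227-138187390: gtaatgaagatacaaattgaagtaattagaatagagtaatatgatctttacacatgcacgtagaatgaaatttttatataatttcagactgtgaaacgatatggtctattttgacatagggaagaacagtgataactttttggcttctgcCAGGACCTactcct
*Taf6* chr5:138187388-138187417: gcgccttctgaAGGTCCTGacagctgggta

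The copy nearer to the gene lies 14 to 7 bases upstream of the start site at 138187226 (138187233 to 138187240), between the first exons of the annotated *Taf6* transcripts. The copy farther away lies 180 to 173 bases upstream (138187399 to 138187406), inside exon 1 of another *Taf6* transcript, and reads in the opposite direction to the gene. Of the 10 genes, 8 had windows in the RefSeq table, 10 windows in all, and *Taf2* and *Taf7* had none. All the partners' windows held 0 copies. A match is a description of letters and not a measured binding site.

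*Taf6*, which encodes the histone-fold partner of TAF9, was lower in each B-CKO library than in each control library at all 3 times. At 0 h, control libraries 1, 2 and 3 held 26.1, 23.3 and 15.3 FPKM and B-CKO libraries 1, 2 and 3 held 14.6, 12.4 and 11.3 FPKM. The gap between the groups was narrow there, since the highest B-CKO library, at 14.55 FPKM, lay just below the lowest control library, at 15.27 FPKM. At 24 h, controls held 32.8, 33.0 and 34.0 FPKM and B-CKO libraries 14.98, 14.11 and 15.27 FPKM. At 48 h, controls held 31.4, 33.9 and 28.4 FPKM and B-CKO libraries 13.9, 15.1 and 14.7 FPKM. With LPS the groups stood far apart, and the B-CKO libraries of 24 h and 48 h overlapped one another. The B-CKO mean was 59.3% of the control mean at 0 h, 44.5% at 24 h and 46.6% at 48 h. On the log2(FPKM + 1) scale, which understates changes of low genes, the differences were -0.68, -1.12 and -1.05.

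**Figure D1:**
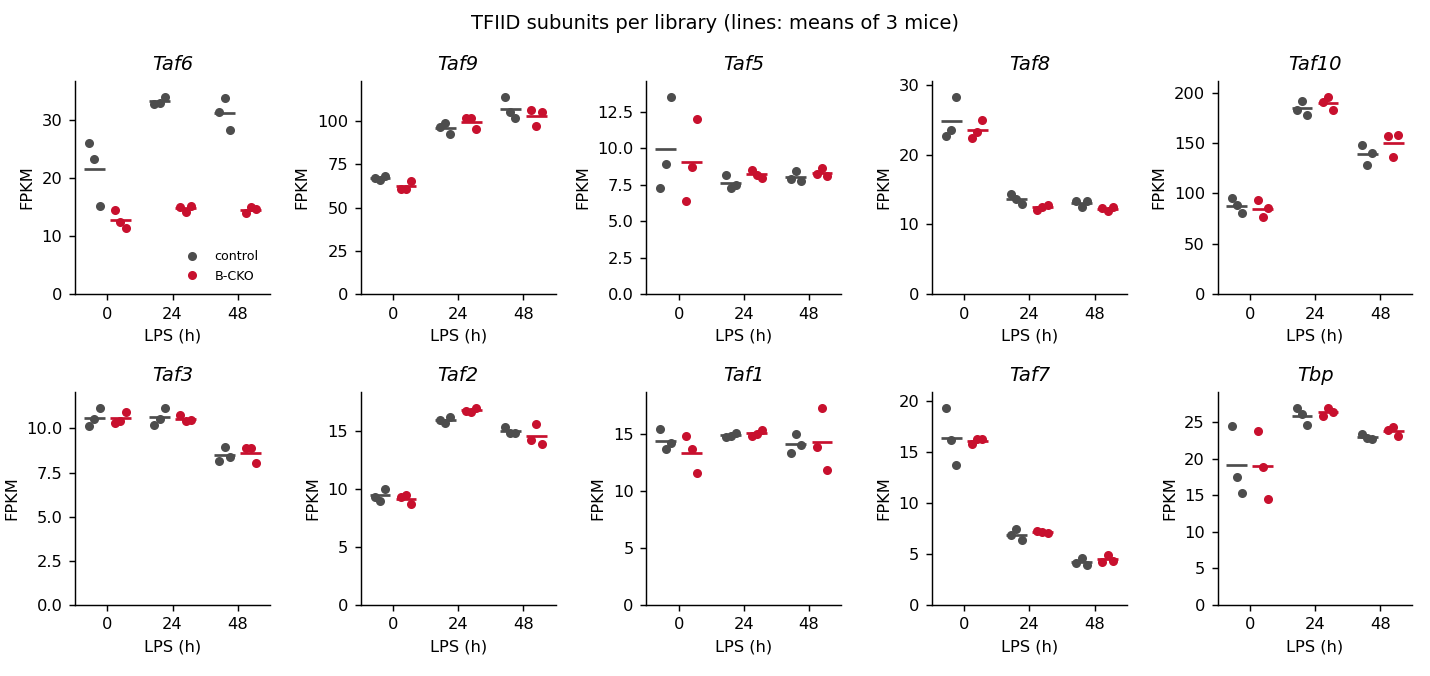
FPKM (vertical axes, from 0) of the 10 TFIID genes by hours of LPS, with 1 point per library (n = 3 per group), control in grey and B-CKO in red, and the group mean as a line. *Taf6* separates by genotype, with means of 33.3 FPKM for control and 14.8 FPKM for B-CKO cells at 24 h, whereas the means of the partners lie close together.

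None of the 9 partners passed the test between genotypes at any time. B-CKO was compared with control in each time point with limma on log2(FPKM + 1) over every gene detected in at least 1 of the 6 libraries, with Benjamini-Hochberg adjustment. At 0 h, 0 of 9 partners were called, 0 of 9 had an unadjusted p under 0.05, beside 0% and 2% of all 15641 genes. At 24 h, 0 of 9 were called and 1 of 9 had an unadjusted p under 0.05, beside 0.0993% and 16.3% of 15104 genes. At 48 h, 0 of 9 were called and 0 of 9 had an unadjusted p under 0.05, beside 0.046% and 7.71% of 15210 genes. *Zbtb24*, the deleted gene, was itself not called in this fit (differences of -1.78, -0.64 and -0.50, limma adjusted p = 0.12, 0.0586 and 0.267 in time order). The fit had no filter on level, and calls of *Zbtb24* under the alternatives are not given here. A missing call is therefore no sign of equal levels. The partners' median difference was -0.05, 0.04 and 0.02 at the 3 times, beside -0.0015, -0.0046 and -0.0055 over all genes.

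At 24 h the 95% confidence intervals of all 9 partners lay between -0.23 and 0.23 on the log2 scale, a range of 0.851-fold to 1.17-fold. At 48 h they lay between -0.29 and 0.30, or 0.816-fold to 1.23-fold. At 0 h they reached from -0.80 to 0.56, or 0.575-fold to 1.48-fold. With the replicate number as a block, the 0 h intervals lay between -0.31 and 0.29, or 0.805-fold to 1.22-fold, and 0 of 9 partners were called.

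**Figure D2:**
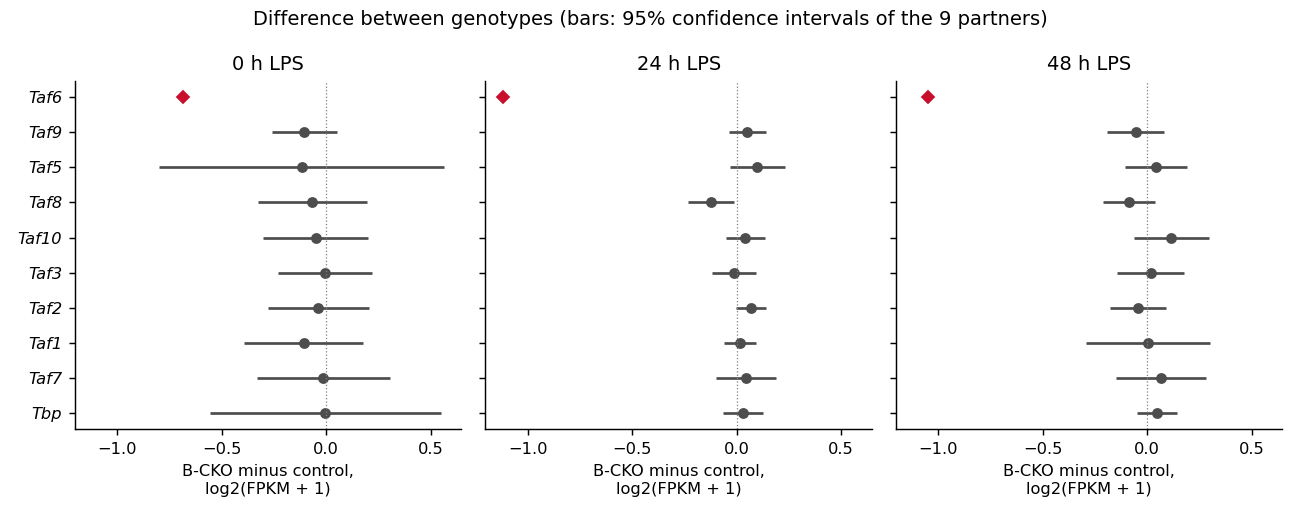
Difference between B-CKO and control (horizontal axis, log2(FPKM + 1)) of each gene at 0 h, 24 h and 48 h, with 95% confidence intervals for the 9 partners (n = 3 against 3) and *Taf6* as a red diamond with no interval, as it was chosen by this contrast. The partners' points lie between -0.12 and 0.12, and *Taf6* lies at -0.68, -1.12 and -1.05.

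Among the partners in the core of the complex, *Taf9*, the direct partner of TAF6, was at 67.2, 65.7 and 68.0 FPKM in control cells and at 60.9, 60.6 and 65.2 FPKM in B-CKO cells at 0 h. It was 1 of 9 partners whose B-CKO libraries all lay below the controls at 0 h, as for 1.94% of all genes, and 0 of 9 lay above, as for 1.92% of all genes (difference -0.10, SE 0.065, limma adjusted p = 1). At 24 h the difference of *Taf9* was 0.05 (SE 0.037, adjusted p = 0.568). Its annotated span of 4718 bases is shared in full with *Ak6*, so its level is uncertain where counting could not part the genes. *Taf5*, the WD40-repeat subunit of the core, was at 7.63 ± 0.469 FPKM (SD, n = 3) in control cells and at 8.24 ± 0.287 FPKM (SD, n = 3) for B-CKO cells at 24 h (difference 0.10, SE 0.055, adjusted p = 0.439).

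*Taf8*, which pairs with TAF10 and links it to TAF2, was the partner with the unadjusted p under 0.05. At 24 h it was at 14.4, 13.6 and 13.0 FPKM in control cells and at 12.0, 12.5 and 12.8 FPKM in B-CKO cells, and the groups did not overlap. Its difference was -0.12 (SE 0.046, limma adjusted p = 0.265). At 48 h its controls were at 13.3, 12.5 and 13.4 FPKM and its B-CKO libraries at 12.4, 11.9 and 12.5 FPKM, again without overlap (difference -0.09, SE 0.052, adjusted p = 0.773). *Taf8* was the 1 of 9 partners with all B-CKO libraries below the controls at 24 h, where 11.7% of all genes did so, and at 48 h, where 6.24% did.

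*Taf2*, which encodes a subunit that contacts the initiator of core promoters, lay the other way at 24 h. Its controls were at 15.96, 15.73 and 16.24 FPKM and its B-CKO libraries at 16.7, 16.6 and 17.0 FPKM (difference 0.07, SE 0.030, limma adjusted p = 0.334). It was the 1 of 9 partners above the controls in all B-CKO libraries at 24 h, as were 8.43% of all genes, and 0 of 9 partners did so at 48 h, against 4.89%. At 48 h the difference of *Taf2* was -0.04, and -0.0904 to -0.0111 when each library was left out in turn.

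*Taf10*, the subunit with the highest level in every group, was at 184.2 ± 7.02 FPKM (SD, n = 3) in control cells and at 189.6 ± 6.85 FPKM (SD, n = 3) for B-CKO cells at 24 h (difference 0.04, SE 0.039, limma adjusted p = 0.666). *Taf3*, whose protein reads the histone H3 lysine 4 trimethyl mark at promoters, was at 10.6 ± 0.498 FPKM in control cells and at 10.5 ± 0.191 FPKM in B-CKO cells (SD, n = 3 each) at 24 h, a difference of -0.01 (SE 0.044, adjusted p = 0.909). *Taf1*, the large bromodomain subunit, differed by 0.02 at 24 h and by 0.0045 at 48 h. *Taf7*, which binds TAF1 and restrains its acetyltransferase activity, differed by 0.04 and 0.06. *Tbp*, the TATA-binding subunit, differed by 0.03 and 0.05.

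At 0 h the replicate number went with the level of several of these genes in both genotypes. *Tbp* was at 24.5, 17.5 and 15.3 FPKM in control libraries 1, 2 and 3 and at 23.8, 18.8 and 14.5 FPKM in B-CKO libraries 1, 2 and 3. *Taf5* was at 7.30, 8.93 and 13.5 FPKM in the controls and at 6.41, 8.71 and 12.0 FPKM in B-CKO cells. In both genotypes library 1 was thus the highest in *Tbp* and the lowest in *Taf5*, and library 3 the reverse, while *Taf6* was highest in library 1 and lowest in library 3. Compared by number, *Taf6* in B-CKO was 0.557, 0.535 and 0.743 of the control at 0 h. *Taf9* (0.907, 0.923 and 0.959), *Taf5* (0.878, 0.975 and 0.890) and *Taf8* (0.986, 0.9915 and 0.884) were below the control in each pair. The share of all genes below the control in each pair was not computed, so nothing is read from these partners. The ratios of each of the other partners lay on both sides of the control, and no partner was called with the block.

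The level of *Taf6* was also set against the geometric mean of the 9 partners in the same library, which takes out differences in library scaling. That mean lay between 18.2 and 21.6 FPKM in all 18 libraries. At 0 h *Taf6* stood at 1.26, 1.18 and 0.738 of it in control and at 0.741, 0.642 and 0.577 in B-CKO cells, so that control library 3 lay within the range of B-CKO. At 24 h the ratios were 1.54, 1.55 and 1.65 in control and 0.696, 0.654 and 0.717 in B-CKO cells. At 48 h they were 1.68, 1.80 and 1.55 in control and 0.740, 0.776 and 0.805 in B-CKO cells. The groups did not overlap at 24 h or 48 h. B-CKO stood at 0.631, 0.437 and 0.463 of control in this ratio at 0 h, 24 h and 48 h, and against *Taf9* alone at 0.651, 0.429 and 0.486.

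**Figure D3:**
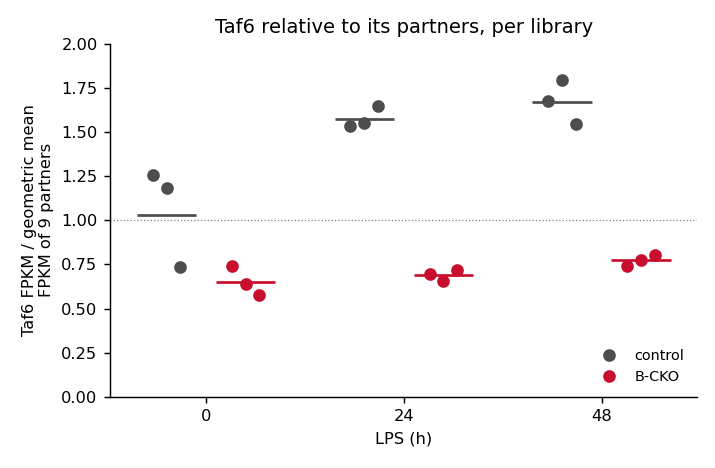
*Taf6* FPKM divided by the geometric mean FPKM of its 9 partners in the same library (vertical axis, from 0), by hours of LPS, with 1 point per library and the geometric mean of 3 libraries as a line. All control libraries at 24 h and 48 h lie above 1 and all B-CKO libraries lie below it.

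The place of *Taf6* among the 10 subunits, by length-scaled FPKM, differed with genotype at 24 h and 48 h. At 0 h its range overlapped those of several subunits in each genotype, so its rank there is not resolved. *Taf10* and *Taf9* were the first and second in every group, with no overlap between them. In controls *Taf6* ranked 4 at 0 h, with a range that overlapped those of *Taf8*, *Tbp*, *Taf7* and *Taf1*. It ranked 3 at 24 h and 48 h, apart from the genes on either side of it. In B-CKO cells it ranked 7 at 0 h, where its range overlapped those of *Taf1*, *Tbp* and *Taf5*. It ranked 6 at 24 h, where it overlapped *Taf1*, and 5 at 48 h, where it overlapped *Taf2* and *Taf1*. *Taf7* ranked last in both genotypes at 24 h and 48 h, with a range that overlapped that of *Taf5* in controls at 24 h and not in the other 3 groups.

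The genes next to *Taf6* were looked at for the same comparison. *Cnpy4*, a canopy-family gene that starts head to head with *Taf6* at position 138187535, shares the upstream CAGGACCT copy, which lies 136 to 129 bases before its own start. At 24 h *Cnpy4* was at 10.64, 10.99 and 10.89 FPKM in control cells and at 9.30, 7.69 and 7.73 FPKM in B-CKO cells. At 48 h it was at 12.6, 13.6 and 12.7 FPKM in control cells and at 10.4, 8.69 and 8.97 FPKM in B-CKO cells. All B-CKO libraries lay below the controls at both times, at 76.0% and 72.0% of the control mean, as did 11.7% and 6.24% of all genes, and the groups overlapped at 0 h.

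The difference of *Cnpy4* was -0.12 at 0 h (SE 0.20, limma adjusted p = 1), -0.36 at 24 h (SE 0.072, adjusted p = 0.0991) and -0.44 at 48 h (SE 0.077, adjusted p = 0.178), and it was not called. With a filter at a mean of 1 FPKM the adjusted p was 0.0203 at 24 h, and over all alternatives it was 0.0203 to 0.267 for 24 h and 0.023 to 0.47 for 48 h. *Ap4m1*, an adaptor protein subunit gene on the opposite strand, shares 1813 bases with the 3′ end of *Taf6*, and whether counting used the strand is not given in the sources used here. It differed by 0.05, 0.0032 and -0.09 (adjusted p = 1, 1 and 0.877). Of the 10 genes nearest to *Taf6*, 0 were called at any time by limma. An unadjusted p under 0.05 was found for 0, 5 and 1 at 0 h, 24 h and 48 h, beside 2%, 16.3% and 7.71% of all genes. With the replicate number as a block these counts were 0, 2 and 1, beside 5.7%, 17.8% and 9.45% of all genes. With LPS, *Mcm7*, a subunit of the replicative helicase and another of these neighbours, rose from 0 h to 24 h by 2.88 in control and 2.95 in B-CKO cells (adjusted p = 4.97e-06 and 2.24e-06), and *Zfp113*, a zinc finger gene, fell by 0.58 in B-CKO cells (adjusted p = 0.0118), with a change of -0.31 in controls (adjusted p = 0.136). Of the 10 neighbours, 4 rose and 0 fell in controls, beside 26.7% and 30.7% of all genes, and 4 rose and 2 fell in B-CKO cells, beside 27.5% and 32.3%. In the second step 2 rose and 4 fell in controls (20.1% and 24.8% of all genes) and 0 rose and 5 fell in B-CKO cells (21.7% and 24%). *Map11* fell by 0.47 and 0.37, and *Cnpy4* rose by 0.24 in controls (adjusted p = 0.00514), with 0.17 in B-CKO cells (adjusted p = 0.213). Differences between the genotypes in these changes were not tested.

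**Figure D4:**
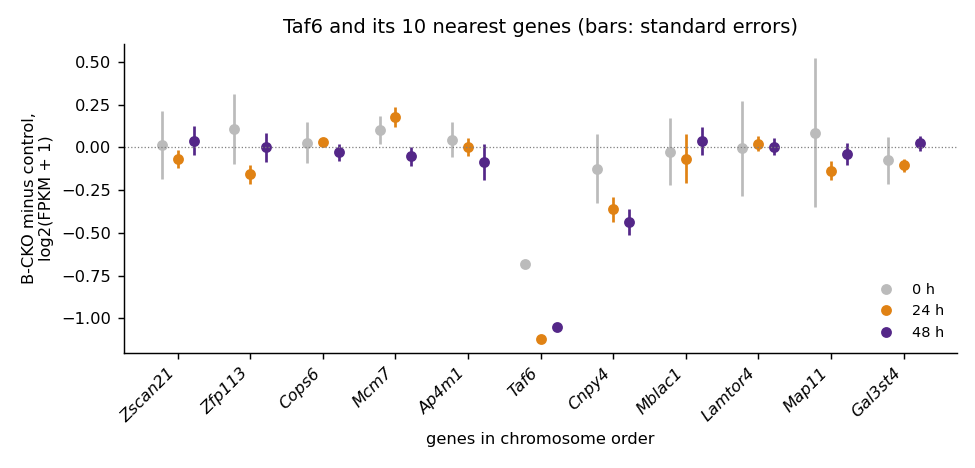
Difference between B-CKO and control (vertical axis, log2(FPKM + 1)) of *Taf6* and the 5 nearest genes of the table on each side, in chromosome order, at 0 h, 24 h and 48 h, with standard errors for the neighbours (n = 3 against 3) and none for *Taf6*. *Cnpy4* lies at -0.36 and -0.44 at 24 h and 48 h, and *Ap4m1*, on the other side, within 0.09 of 0.

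With LPS, *Taf10*, *Taf9* and *Taf2* rose and *Taf7* and *Taf8* fell from 0 h to 24 h in each genotype, in numbers near the shares of all genes in controls, and nothing is read from the counts about the partners as a group. In controls, 3 of the 9 partners rose from 0 h to 24 h, where 26.7% of 15531 genes rose, and 2 of 9 fell, where 30.7% fell. In B-CKO cells, 4 of 9 rose, where 27.5% of 15551 genes rose, and 2 of 9 fell, where 32.3% fell. From 24 h to 48 h, 1 of 9 rose and 4 of 9 fell in controls, against 20.1% and 24.8% of 15178 genes. In B-CKO cells 0 of 9 rose and 5 of 9 fell over that step, against 21.7% and 24% of 15253 genes. The partners' median change from 0 h to 24 h was 0.05 in control and 0.17 in B-CKO cells, beside -0.02 for all genes in each. Its direction in controls depended on the scaling, since with TPM the medians were -0.11 and 0.01, beside -0.08 and -0.07 for all genes. Whether the change with LPS differed between genotypes was not tested. These tests treat the libraries of different times as separate samples, and the labels leave it unsaid whether a number marks the same mouse at each time.

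*Taf10* rose most, from 94.9, 88.8 and 80.0 FPKM to 183.2, 191.7 and 177.8 FPKM in controls (log2 change 1.06, SE 0.075, limma adjusted p = 6.06e-05). In B-CKO cells it went from 93.1, 76.1 and 85.6 FPKM to 190.7, 195.8 and 182.2 FPKM (1.15, SE 0.081, adjusted p = 4.49e-05). In the second step it fell by 0.41 in control and by 0.34 in B-CKO cells.

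*Taf9* rose from 66.9 ± 1.17 to 96.0 ± 3.25 FPKM (SD, n = 3) in controls (0.51, SE 0.049, limma adjusted p = 0.00021). In B-CKO cells the rise went from 62.3 ± 2.54 to 99.5 ± 3.67 FPKM (SD, n = 3) (0.67, SE 0.054, adjusted p = 7.99e-05). *Taf2* rose from 9.44 ± 0.535 to 15.98 ± 0.255 FPKM in controls (0.70, SE 0.071, adjusted p = 0.000278) and from 9.17 ± 0.383 to 16.8 ± 0.219 FPKM in B-CKO cells (0.81, SE 0.064, adjusted p = 7.34e-05). The further rise of *Taf9* to 48 h in controls was small (0.15, SE 0.050, adjusted p = 0.0442). Without 24 h library 1, 2 or 3 or 48 h library 1 or 2 its adjusted p was 0.0632 to 0.139, with changes of 0.10 to 0.19 over all libraries left out, and in B-CKO cells the change was 0.05 (adjusted p = 0.49).

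*Taf6* is given over time with no test, since the same libraries entered its choice. In controls its mean was 21.5 ± 5.62 FPKM (SD, n = 3) at 0 h and 33.3 ± 0.680 FPKM (SD, n = 3) at 24 h, a difference of 0.64, and all 24 h libraries lay above all 0 h libraries. In B-CKO cells the means were 12.8 ± 1.63 and 14.8 ± 0.604 FPKM, a difference of 0.20, and the groups overlapped. Leaving out each library in turn gave 0.42 to 0.79 in control and 0.13 to 0.29 in B-CKO cells, and with TPM the differences were 0.49 and 0.0493. From 24 h to 48 h the difference was -0.09 in control and -0.02 in B-CKO cells.

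*Taf7* fell most. It was at 19.3, 16.1 and 13.7 FPKM in controls at 0 h, at 6.81, 7.44 and 6.39 FPKM at 24 h and at 4.13, 4.63 and 3.91 FPKM at 48 h, with no overlap between times. Its log2 change was -1.13 (SE 0.14, limma adjusted p = 0.000571) and then -0.59 (SE 0.080, adjusted p = 0.00119) in controls. In B-CKO cells the changes were -1.07 (SE 0.063, adjusted p = 2.1e-05) and -0.57 (SE 0.072, adjusted p = 0.000732). *Taf7* lies within the spans of 3 longer annotated genes, so fragments could be assigned to more than 1 gene. These 3 genes have no row in the expression table, and whether counting considered them is not known.

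*Taf8* fell from 24.8 ± 3.05 to 13.6 ± 0.686 FPKM (SD, n = 3) by 24 h in controls (-0.81, SE 0.099, limma adjusted p = 0.000628) and from 23.5 ± 1.36 to 12.5 ± 0.382 FPKM (SD, n = 3) for B-CKO cells (-0.87, SE 0.066, adjusted p = 6.35e-05), and was not called from 24 h to 48 h. Of the TAF8-TAF10 pair, 1 gene thus fell while the other rose. *Taf3* was not called from 0 h to 24 h and fell from 24 h to 48 h by 0.29 in control (adjusted p = 0.0052) and by 0.27 in B-CKO cells (adjusted p = 0.00756). *Taf1* and *Taf5* were not called in either step, with levels of 11.6 to 17.4 FPKM for *Taf1* over all libraries. In B-CKO cells *Taf1* was called as higher at 24 h without 0 h library 1 (0.24, adjusted p = 0.0478) and as lower at 48 h without 48 h library 2 (-0.22, adjusted p = 0.0485).

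*Tbp* rose by 0.48 in B-CKO cells from 0 h to 24 h (SE 0.16, limma adjusted p = 0.0444) and differed by 0.44 in controls (SE 0.16, adjusted p = 0.0601). With the replicate number as a block the adjusted p was 0.0539 in B-CKO cells and 0.0406 in controls. In controls *Tbp* was also called with the 1 FPKM filter (0.0382), with median ratio scaling (0.47, adjusted p = 0.0221) and with block and filter together (0.0209). After rescaling to TPM it was called in neither genotype (0.29, adjusted p = 0.164 in controls, and 0.32, adjusted p = 0.14 in B-CKO cells). In B-CKO cells the call was lost without 0 h library 2 or 3 or any 24 h library (0.30 to 0.49, adjusted p = 0.0572 to 0.12), and in controls *Tbp* was called without 0 h library 1 (0.63, adjusted p = 0.00158). Later, from 24 h to 48 h, *Tbp* fell by 0.16 in control (adjusted p = 0.0168) and by 0.15 in B-CKO cells (adjusted p = 0.0173). These calls were lost without control 24 h library 1 or 2 or 48 h library 3 (-0.16 to -0.13, adjusted p = 0.0503 to 0.0583) and without B-CKO 24 h library 2 or 3 (-0.13 and -0.15, adjusted p = 0.067 and 0.0529). *Taf2* fell by 0.19 in B-CKO cells over that step (adjusted p = 0.0211), which was lost without any 24 h library or 48 h library 1 (-0.20 to -0.18, adjusted p = 0.0595 to 0.0722).

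**Figure D5:**
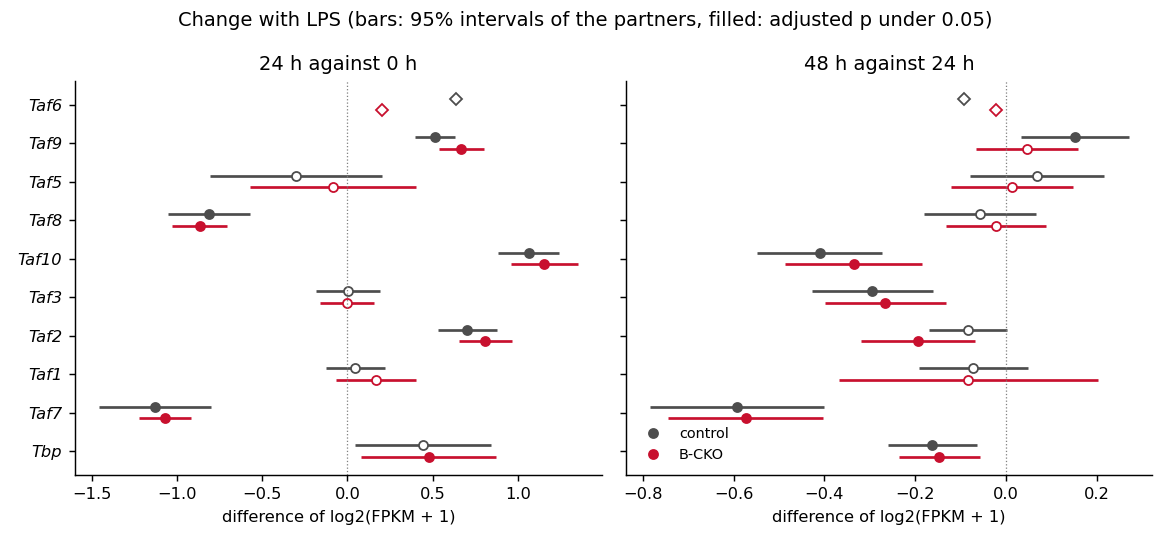
Change with LPS (horizontal axes, difference of log2(FPKM + 1)) from 0 h to 24 h and from 24 h to 48 h in control (grey) and B-CKO cells (red), with 95% intervals (n = 3 against 3) and filled points where the adjusted p was under 0.05 for the 9 partners, and *Taf6* as open diamonds with no interval. *Taf10* lies at 1.06 and 1.15 and *Taf7* at -1.13 and -1.07 at the first step.

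Cells at 0 h differed from the cultures in more than LPS, namely in culture itself, in relative depth, in T cell markers, in B cell markers and in erythroid markers. The 8 B cell markers summed to 4166 to 5522 FPKM at 0 h and 2041 to 2706 FPKM later, and 6 erythroid markers to 9.01 to 52.78 FPKM at 0 h and 7.51 to 16.27 FPKM later. A set of 7 myeloid markers summed to 9.1 to 14.97 FPKM at 0 h and 6.55 to 13.5 FPKM later, ranges that overlapped. The part of these in the changes with time was not tested. In bulk samples, less RNA per cell and fewer cells of a type cannot be told apart.

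Other genes of the machinery were counted in the same way. Of 6 other TFIID subunits in the table, 0 were called between genotypes at any time by limma, and 0, 3 and 0 had an unadjusted p under 0.05, beside 2%, 16.3% and 7.71% of all genes. In controls, 3 of 6 rose and 2 of 6 fell from 0 h to 24 h, where 26.7% and 30.7% of all genes did, with a median of 0.31, beside -0.02 for all genes. The 2 that fell are a share near that of all genes. *Taf12*, the histone-fold partner of TAF4, rose by 0.80 (SE 0.22, adjusted p = 0.021), and *Taf4* fell by 0.64 (SE 0.091, adjusted p = 0.00122). From 24 h to 48 h 0 of 6 rose and 5 of 6 fell, beside 20.1% and 24.8% of all genes, *Taf4b*, a variant of TAF4, by 0.99 (SE 0.095, adjusted p = 0.000284). In B-CKO cells 3 of 6 rose (*Taf12* by 0.98) and 2 of 6 fell (*Taf4* by 0.82) in the first step, beside 27.5% and 32.3% of all genes, and 0 rose and 3 fell (*Taf4b* by 0.99) in the second, beside 21.7% and 24%.

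Of 17 other general transcription factor genes (TFIIA, TFIIB, TFIIE, TFIIF and TFIIH), 0 were called between genotypes by limma, and 0, 3 and 0 had an unadjusted p under 0.05, again beside 2%, 16.3% and 7.71%. From 0 h to 24 h 13 of 17 rose and 0 fell in controls, where 26.7% and 30.7% of all genes did, with a median of 0.81. In B-CKO cells 14 of 17 rose and 0 fell, beside 27.5% and 32.3%, with a median of 1.00, and the median of all genes was -0.02 in each genotype. *Gtf2h4*, a TFIIH subunit, rose by 1.64 and 1.55. Of 12 RNA polymerase II subunits, 11 rose and 1 fell over the same step in each genotype, beside the same shares of all genes, with medians of 1.12 and 1.16. *Polr2f*, a small subunit shared by the RNA polymerases, rose by 2.03 and 2.11, and *Polr2a*, the catalytic large subunit, fell by 0.41 and 0.29 in control and B-CKO cells. Between genotypes, 0 of the 12 were called, and 0, 6 and 1 had an unadjusted p under 0.05, beside 2%, 16.3% and 7.71% of all genes. Over the step to 48 h, 2 of 17 general factors rose and 11 fell in controls (*Gtf2b* 0.25, *Gtf2f2* -0.49), beside 20.1% and 24.8% of all genes, and 0 rose and 11 fell in B-CKO cells (*Ercc3* -0.50), beside 21.7% and 24%. Of the polymerase subunits, 1 of 12 rose and 9 fell in each genotype over that step, beside the same shares (*Polr2d* 0.32 and 0.14, *Polr2e* -0.82 and -0.92).

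The genes whose levels followed *Taf6* most closely were *Cdc40*, a splicing factor gene (Pearson r = 0.906), *Rnf187*, a RING finger gene (0.904), *Ostc*, an oligosaccharyltransferase subunit gene (0.898), *Kdm8* (0.815) and *Car2*, a carbonic anhydrase gene (0.784). They are the first 5 of 9996 genes that averaged 1 FPKM or more, by r of log2(FPKM + 1) over the 18 libraries, which share groups and times. *Cnpy4* came next, at rank 6 (r = 0.774). The partners ranged from 0.351 for *Taf9* (rank 1188) to -0.389 for *Taf5* (rank 9715). *Ostc* was at 83.9 FPKM in control cells and at 33.1 FPKM in B-CKO cells at 24 h, and *Cdc40* at 21.2 and 13.0 FPKM. Of these 5 genes, 3 had a RefSeq promoter window, which held 2 copies of CAGGACCT for *Cdc40*, 1 for *Rnf187* and 0 for *Kdm8*, looked up after their levels were known. Over the windows of all genes, 1.99% held at least 1 copy and 0.0396% held 2 or more. The 5 genes were ranked on the libraries whose genotype difference picked *Taf6*, so nothing is read from these copies.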

How the data were processed

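Libraries of RNA from sorted splenic B cells were grouped by genotype and day from the sample labels, 18 in all. The authors mapped paired reads to mm10 with bowtie2 at default settings, used Cufflinks and RSEM, and deposited FPKM with 2 decimals, which scale for transcript length and mapped fragments. Their processing notes also name BWA and DESeq2, versions and annotation are not given in the sources used here, and the instrument is a HiSeq or Novaseq in the methods and an MGI2000 in the labels. Gene IDs were matched to NCBI RefSeq (16512 of 16545), and promoter windows were taken from RefSeq on GRCm38.p6 and exons from GENCODE.

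From these values log2(FPKM + 1) was tested with limma 3.58.1 (R 4.3.3; lmFit, and eBayes with a trend) within each time point or genotype, over genes above 0 FPKM in any library, with Benjamini-Hochberg adjustment and a threshold of 0.05. The authors' DESeq2 test needs counts and was not run. On simulated data with 200 changed genes, calls for B-CKO against control at 0 h found 36% of the 86 genes with a 1.5-fold change. The calls found 94.7% of the 114 with a 2-fold change (15007 tested), and at 24 h 100% of 111 and 100% of 89 (14462 tested). In the data themselves the deleted gene *Zbtb24* was not called at any time in the fit without a filter on level. In that fit, this recovery thus does not carry over to each gene.

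Libraries of both genotypes share replicate numbers. Across genes, the distances of same-numbered libraries from their own group's mean correlated at 0.821, 0.435 and 0.751 at 0 h, where the numbers therefore pair the samples by the data, with no meaning of the number given in the labels. At 24 h (0.066, 0.148 and 0.079) and 48 h (-0.048, 0.183 and 0.176) these correlations were weak. Libraries of different number had means of -0.049 at 24 h and -0.052 at 48 h. Between times the labels leave it unsaid whether a number is the same mouse, and the block is given where it changes a partner's call, with the other lists' block, added after seeing the data, as counts. P-values measure the spread between these libraries.

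Named genes are the 10 members, the 5 genes with the highest r with *Taf6*, and from each list those called between genotypes and the largest called rise and fall with LPS. *Cnpy4* and *Ap4m1* are named as the neighbours on either side of *Taf6*, beyond that rule. An item of the study is not reported here. The members and lists were chosen with earlier results of these data known. Alternatives were a pseudocount of 0.1 in place of 1, a filter at a mean of 1 FPKM, rescaling to TPM, median ratio scaling, the replicate block, block and filter together, and leaving out each library. Tables were computed with pandas 2.3.3 and numpy 2.4.6 under Python 3.11.15, and plots with matplotlib 3.10.9.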

Additional observations from a re-analysis of the deposited data

How the results depend on the processing

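The count of partners called between genotypes was 0 under every alternative run. Small differences changed sign. With median ratio scaling, the genotype differences became 0.0078 for *Taf3*, 0.0016 for *Taf7* and 0.011 for *Tbp* at 0 h and 0.0072 for *Taf3* at 24 h, and *Taf3* changed by 0.0301 from 0 h to 24 h in B-CKO cells. After rescaling to TPM, the genotype differences at 48 h became -0.0189 for *Taf1* and -0.0055 for *Taf3*, the control changes from 0 h to 24 h became -0.1143 for *Taf1* and -0.1555 for *Taf3*, and the B-CKO changes from 24 h to 48 h became -0.037 for *Taf5* and -0.0082 for *Taf9*. TPM also left 0 partners higher from 24 h to 48 h in controls. The cause was not tested.

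Leaving out a library in turn, genotype differences ranged at 0 h from -0.0696 to 0.0026 for *Taf2*, -0.0344 to 0.0275 for *Taf3*, -0.3242 to 0.1088 for *Taf5*, -0.1289 to 0.1066 for *Taf7*, -0.1273 to 0.0273 for *Taf8*, -0.1183 to 0.0256 for *Taf10*, -0.1705 to 0.1803 for *Tbp* and -0.2625 to 0.0385 for *Cnpy4*. At 24 h they ranged from -0.0399 to 0.0206 for *Taf3*, -0.0005 to 0.0954 for *Taf7* and -0.0045 to 0.0595 for *Tbp*, and at 48 h from -0.1315 to 0.1233 for *Taf1* and -0.0088 to 0.0574 for *Taf3*. Some kept their sign but moved in size. At 24 h these were *Taf9* (0.0247 to 0.0814), *Taf10* (0.0159 to 0.0701) and *Taf1* (0.0016 to 0.0275). At 48 h they included *Taf2* (-0.0904 to -0.0111), *Taf7* (0.0069 to 0.1201) and *Tbp* (0.0298 to 0.0672). *Taf6* stayed between -0.9028 and -0.5348 at 0 h, and at 24 h it moved to -1.16 with a pseudocount of 0.1. Its B-CKO difference from 0 h to 24 h moved to 0.0493 with TPM. Changes from 0 h to 24 h ranged from -0.0294 to 0.037 for *Taf3* in control, and in B-CKO cells from -0.018 to 0.0204 for *Taf3* and -0.2853 to 0.1224 for *Taf5*. From 24 h to 48 h the partners higher in controls numbered 0 to 1 and those lower in B-CKO cells 3 to 6, and B-CKO changes ranged from -0.0536 to 0.0068 for *Taf6*, -0.2187 to 0.036 for *Taf1* and -0.0132 to 0.0369 for *Taf5*.

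With the replicate block, 0 of 9 partners were called at 0 h, and their intervals narrowed to between -0.3125 and 0.2851. From 0 h to 24 h the replicate block gave *Tbp* an adjusted p of 0.0406 in control (0.4419) and 0.0539 in B-CKO cells (0.4757). The replicate block with the 1 FPKM filter called *Cnpy4* at 24 h (adjusted p = 0.0227) and 48 h (0.023). In the other lists the replicate block, an alternative chosen after seeing the data, changed 0 calls between genotypes. With LPS it lost 18 of 211 calls and gained 5, and the neighbours of *Taf6* then numbered 1 higher in control from 24 h to 48 h, 1 lower in B-CKO cells from 0 h to 24 h, and 2 higher and 3 lower in B-CKO cells from 24 h to 48 h, where 1 general factor was then higher. The table holds no counts, so what depth limits was not tested.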

Other observations

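Among 17 subunits of the co-activators SAGA, which shares several TAFs with TFIID, and ATAC, which shares subunits with SAGA, 0 were called between genotypes by limma at any time (0, 2 and 2 at an unadjusted p under 0.05, beside 2%, 16.3% and 7.71% of all genes). From 0 h to 24 h of LPS 7 of 17 rose and 5 of 17 fell in each genotype, beside 26.7% higher and 30.7% lower of all genes in control and 27.5% and 32.3% in B-CKO cells, so that the share that fell is near that of all genes. *Tada2a*, an adaptor of the histone acetyltransferase module, rose by 1.42 in control and 1.52 in B-CKO cells, and *Atxn7*, a subunit of the deubiquitinase module, fell by 1.30 and 1.35. *Taf6l*, the TAF6-like subunit of SAGA, went from 8.81 ± 1.89 to 16.5 ± 0.156 FPKM (SD, n = 3) in controls (0.85, adjusted p = 0.00265) and from 8.25 ± 1.51 to 18.2 ± 1.02 FPKM in B-CKO cells (1.07, adjusted p = 0.00046). Over the step to 48 h, 2 of 17 rose and 9 fell in controls, beside 20.1% and 24.8% of all genes, and 3 rose and 10 fell in B-CKO cells, beside 21.7% and 24%, with *Kat2a*, a histone acetyltransferase, which fell by 0.74 and 0.93, and *Kat2b*, its relative, which rose by 0.31 in controls and *Tada3* by 0.25 in B-CKO cells (adjusted p = 0.0499, and 0.113 with the replicate number as a block, which left 0 of 17 higher there). *Taf6l* is named here for its kinship with *Taf6*, after its values were seen.

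Of 11 genes for TBP partners outside TFIID, 0 were called between genotypes by limma (0, 2 and 1 at an unadjusted p under 0.05, beside the same shares of all genes). From 0 h to 24 h 5 of 11 rose and 1 of 11 fell in controls, beside 26.7% and 30.7% of all genes, and 4 rose and 1 fell in B-CKO cells, beside 27.5% and 32.3%. *Brf2*, a TFIIIB subunit, rose by 0.83 and 1.01, and *Brf1*, its relative in TFIIIB, fell by 0.85 and 0.78. From 24 h to 48 h 9 of 11 fell in each genotype, beside 24.8% and 24% of all genes, *Btaf1*, an ATPase that removes TBP from DNA, by 0.72 in control and 0.88 in B-CKO cells.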
